A study of Mus musculus with 50 samples.

Results

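The BCL2 family genes of mitochondrial apoptosis were followed in mouse colon. The 9 members were named by role: Bak1 and Bax, the pore-forming effectors, Bid, Bbc3, Pmaip1 and Bcl2l11, the BH3-only genes, and Bcl2, Bcl2l1 and Mcl1, the pro-survival proteins. Of these, 8 had a probe set with their symbol among the 19494 genes of the array, 1 probe set each, and no threshold on signal was used to choose them. Bax was not analysed here. The submitters deposited log2 signals of 50 Affymetrix arrays, made from colon RNA of mice at 10 to 12 weeks of age. The titles number the samples singly, and whether each came from a separate mouse is not stated there, so p-values measure the spread between these samples. The arrays formed 10 groups of 5, by genotype and by the number in the array title (1 to 30 or 86 to 124). No source used here says what the title numbers stand for, so comparisons were made within a number series unless stated otherwise.

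In the series 1 to 30 the groups were CASP8 IEC-KO Mlkl -/-, CASP8 IEC-KO, FADD IEC-KO Mlkl -/-, FADD IEC-KO Zbp1 -/-, FADD IEC-KO and the floxed controls Fadd fl/fl. In the series 86 to 124 they were CASP8 IEC-KO, FADD IEC-KO RIPK3 IEC-KO, FADD IEC-KO and the floxed controls Casp8 fl/fl. IEC-KO stands for deletion in intestinal epithelial cells, whereas Zbp1 -/- and Mlkl -/- are deletions in every cell. No group was a wild type, and each series held the floxed control of only 1 of the deleted genes. CASP8 IEC-KO of 1 to 30 could only be set against Fadd fl/fl, and FADD IEC-KO of 86 to 124 only against Casp8 fl/fl. No source used here names the Cre line or links mice by litter. Replicates are named by the number in the array title.

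The adaptor FADD recruits caspase-8 at death receptors, and this protease both starts apoptosis and holds back necroptosis, the RIPK3- and MLKL-driven lytic death that the sensor ZBP1 can start. BCL2 proteins decide a separate step of apoptosis at the mitochondrion. Some BH3-only proteins switch on BAK and BAX, which open the outer membrane and release cytochrome c, while others occupy the pro-survival members. The pro-survival members hold both kinds in check by binding them. Bid links the death receptor route to this step, since its protein is cut by caspase-8 into an active fragment. In the intestine BCL2 proteins are known for setting the survival of crypt cells after damage. Most of this control acts on the proteins, and the arrays measured RNA alone.

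The deleted genes were read first. Fadd averaged 6.27 ± 0.20 (SD, n = 10) in FADD IEC-KO, against 7.38 ± 0.18 and 7.30 ± 0.13 (n = 5 each) in Fadd fl/fl and Casp8 fl/fl. Casp8 averaged 9.06 ± 0.25 (n = 10) in CASP8 IEC-KO, against 10.32 ± 0.22 and 10.50 ± 0.15 in the same floxed groups. Mlkl averaged 7.31 ± 0.18 in CASP8 IEC-KO Mlkl -/- and 7.17 ± 0.12 in FADD IEC-KO Mlkl -/-, against 8.25 ± 0.20 in Fadd fl/fl. Zbp1 in FADD IEC-KO Zbp1 -/- (5.49 ± 0.50) and Ripk3 in FADD IEC-KO RIPK3 IEC-KO (6.68 ± 0.13) were below FADD IEC-KO, at 7.27 ± 0.55 and 8.21 ± 0.65 (n = 10), but near the floxed controls, at 5.68 ± 0.19 for Fadd fl/fl and 6.60 ± 0.19 for Casp8 fl/fl. The tissue label was borne out by 12 of 12 epithelial markers with a mean signal above the array medians of 6.41 to 6.47. Their summed level, as a mean of log2 signals, had group means of 11.35 to 11.54, although 3 of 12 were higher and 2 lower in FADD IEC-KO than in Fadd fl/fl in 1 to 30, and 2 higher in 86 to 124. Markers of other cell types moved as well. Smooth muscle markers averaged 9.29 ± 0.65 and 9.71 ± 0.75 in FADD IEC-KO of the 2 series, against 10.43 ± 0.08 for Fadd fl/fl and 10.33 ± 0.07 for Casp8 fl/fl, with 12 and 5 of 12 lower. Neutrophil markers averaged 5.95 ± 1.36 and 5.34 ± 1.09 in the same FADD IEC-KO groups, against 4.57 ± 0.05 and 4.71 ± 0.09 in those controls, and none of the 12 had a mean over all arrays above the array medians. Of the 12 neutrophil markers 8 were higher in 1 to 30 and 1 in 86 to 124. Macrophage markers averaged 7.91 ± 0.42 and 7.77 ± 0.50 in these FADD IEC-KO groups, against 7.13 ± 0.29 and 7.11 ± 0.11 in the controls, with 10 and 7 of 11 higher. Of 10 T cell markers 5 and 1 were higher. In whole tissue, fewer cells of a type and less RNA per cell cannot be told apart. The part of these cell types in any member's difference was not tested.

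The upstream sequences of the members whose signal changed are shown here, with that of Bcl2 beside them as a pro-survival gene that passed in no comparison of the fit over all arrays. RefSeq, in the build GRCm38.p6, held upstream windows of 250 bases for 7 of the 8 members, 12 windows in all. The Bak1 window lies within the annotated span of the neighbouring gene Ggnbp1, and most of the Bid window within the span of Bid itself. For this reason 30 bases of each are given. All 3 are read 5′ to 3′ on the gene's own strand, the minus strand. Bak1 is at chr17:27028632-27028661, 5 to 34 bases before the annotated start, with capitals on the ETS core. Bid is at chr6:120916840-120916869, 16 to 45 bases before a start that lies inside the annotated span of Bid, with capitals on a GC box. Bcl2 is at chr1:106714291-106714540, the 250 bases before the start, with capitals on its 7 GC boxes.
Bak1: cggccaccgagaACTTCCtctagagggagc
Bid: gggctatcacagGGGCGGggctcccgggcg
Bcl2: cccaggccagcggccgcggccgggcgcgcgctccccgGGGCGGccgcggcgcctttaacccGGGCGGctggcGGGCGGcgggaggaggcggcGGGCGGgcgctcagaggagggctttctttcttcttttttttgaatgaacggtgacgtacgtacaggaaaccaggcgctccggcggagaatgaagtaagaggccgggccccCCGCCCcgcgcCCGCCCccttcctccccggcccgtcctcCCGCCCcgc

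Motifs were searched on both strands in each window. The ETS core (GGAAGT, or ACTTCC on the other strand) was present in 19.7% of all 32851 mouse windows and the GC box (GGGCGG or CCGCCC) in 32.7%. The Bak1 window held 1 ETS core and no GC box, the Bid window held 3 GC boxes and no ETS core, and the Bcl2 window held 7 GC boxes and no ETS core. None of the 12 windows of members held the interferon-linked letters TTCNNNGAA, present in 7.02% of all windows. A match is a run of letters in the window and not a measured binding site.

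The 8 members stood at different signal levels, and on an array these are compared only as places within each array. Mcl1, which protects cells with a short-lived protein, ranked highest, at the 98.7th percentile of genes on average, followed by Bcl2 at 81.3 and Bak1 at 80.9. Bcl2l1, the gene of BCL-XL, stood at 73.7, Pmaip1 (NOXA) at 59.3, Bbc3 (PUMA) at 56.7, Bcl2l11 (BIM) at 52.3 and Bid at 37.2. Probe sets differ in how brightly they read the same amount of RNA, so this order is one of signal. Bak1 varied most between groups. Its 10 group means spanned 0.82 log2 units, against a median of 0.34 over all genes, and 57.3% of its variance lay between groups, against a median of 27.9%. The other 7 members had spans of 0.22 to 0.55 and 16.4% to 37.3% of their variance between groups. When the 10 groups were put in order of their means, only 1 step exceeded the larger SD of its 2 neighbours, that from CASP8 IEC-KO Mlkl -/- to Casp8 fl/fl for Bak1. Ordered from high to low, Bak1 averaged 8.71, 8.68, 8.59 and 8.52 in FADD IEC-KO of 1 to 30, FADD IEC-KO of 86 to 124, FADD IEC-KO Zbp1 -/- and CASP8 IEC-KO of 86 to 124. It averaged 8.38, 8.30 and 8.29 in FADD IEC-KO Mlkl -/-, CASP8 IEC-KO of 1 to 30 and FADD IEC-KO RIPK3 IEC-KO, and 8.27, 8.16 and 7.88 in Fadd fl/fl, CASP8 IEC-KO Mlkl -/- and Casp8 fl/fl. All other neighbouring groups, for all 8 members, lay within their spread.

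**Figure D1:**
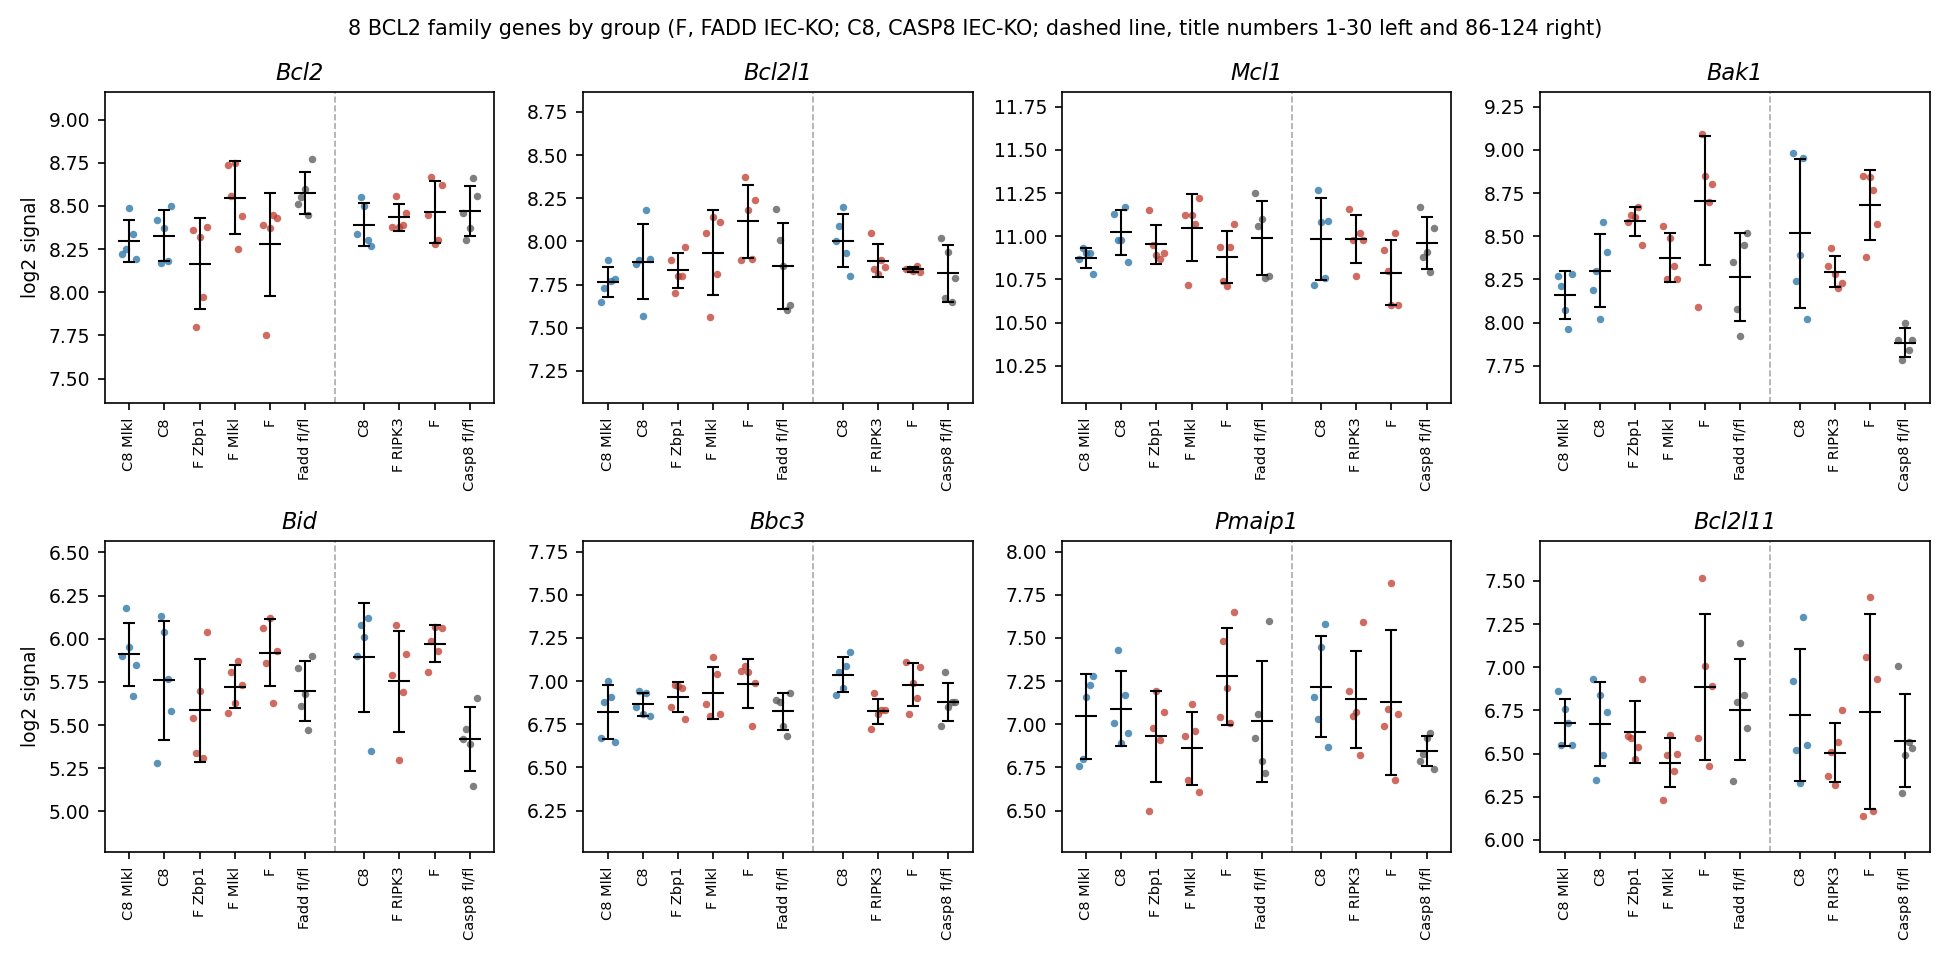
Log2 signal (vertical axes, 1 panel per gene) of the 8 measured BCL2 family genes in the 10 groups (horizontal axes), 1 point per array with the group mean and SD as bars, and a dashed line between title numbers 1 to 30 (left) and 86 to 124 (right). C8 stands for CASP8 IEC-KO and F for FADD IEC-KO. Bak1 spans 0.82 log2 units between group means, whereas Bbc3 spans 0.22 and Mcl1 0.26.

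Bak1, the effector that sits in the mitochondrial outer membrane, was higher in FADD IEC-KO colon than in the floxed control of each series. In the series 86 to 124 its log2 signal was 8.38, 8.57, 8.77, 8.84 and 8.85 in FADD IEC-KO, against 7.78, 7.84, 7.90, 7.90 and 8.00 in Casp8 fl/fl. Every FADD IEC-KO array lay above every control array. The difference was 0.80 ± 0.14 log2 units (SE, n = 5 against 5), a fold of 1.74, with a limma adjusted p of 0.000246. Over 16 alternatives it ran from 0.76 to 0.87 and passed the test in each. In the series 1 to 30 the values were 8.09, 8.70, 8.80, 8.85 and 9.09 in FADD IEC-KO, against 7.92, 8.08, 8.35, 8.45 and 8.52 in Fadd fl/fl. Of the 5 knockout arrays 4 lay above all controls, while replicate 21, at 8.09, lay among them. The difference there was 0.44 ± 0.14 (SE, limma adjusted p = 0.0257). This call rested on single arrays. It was lost without FADD IEC-KO replicate 22 (0.34, limma adjusted p = 0.126), 23 (0.40, 0.0711) or 25 (0.41, 0.0539), and without Fadd fl/fl replicate 27 (0.39, 0.0748) or 28 (0.35, 0.102). Over 17 alternatives the call was lost in 7, among them a fit of only the 2 groups compared (limma adjusted p = 0.133). Without FADD IEC-KO replicates 22 and 23 together the value was 0.26 with an adjusted p of 0.394. These 2 arrays were also the lowest of their group for smooth muscle markers, at 8.86 and 8.67, and the highest for neutrophil markers, at 8.04 and 6.57.

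Bak1 also rose in CASP8 IEC-KO colon of the series 86 to 124, with values that spread widely. They were 8.02, 8.24, 8.39, 8.95 and 8.98 in CASP8 IEC-KO, against the same 5 Casp8 fl/fl arrays at 7.78 to 8.00. The groups did not overlap, although the lowest knockout array, replicate 108, stood 0.02 above the highest control. The difference was 0.63 ± 0.14 (SE, fold 1.55, limma adjusted p = 0.0159). Without replicate 87 it was 0.52 with an adjusted p of 0.106, and without replicate 104 it was 0.52 with 0.0944, so the call was lost without either high array. A fit of only the 2 groups compared also lost it (adjusted p = 0.178). In each of these settings the calls over all genes fell from 479 to 1, and the adjusted p of Bak1 depends on all genes. Fibroblast and endothelial markers averaged 7.77 ± 0.24 in this CASP8 IEC-KO group and 8.24 ± 0.07 in Casp8 fl/fl, with 4 of 11 lower. Smooth muscle markers averaged 9.97 ± 0.28 and 10.33 ± 0.07 in the same groups, with none of 12 past the test, and proliferation markers 8.40 ± 0.23 and 7.96 ± 0.11, with 3 of 11 higher. Their part in the Bak1 difference was not tested. In the series 1 to 30 Bak1 was at 8.02, 8.19, 8.30, 8.41 and 8.58 in CASP8 IEC-KO, which overlapped with Fadd fl/fl at 7.92 to 8.52. The difference there was 0.04 ± 0.14 (95% interval -0.25 to 0.32, limma adjusted p = 0.944).

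The 2 floxed controls were also set against each other for Bak1. Casp8 fl/fl averaged 7.88 ± 0.08 (SD, n = 5) and Fadd fl/fl 8.27 ± 0.25, a difference of -0.38 ± 0.14 (SE, limma adjusted p = 0.351, unadjusted p = 0.0105). Genotype and number series cannot be told apart in this difference. The CASP8 IEC-KO effect on Bak1 in 1 to 30 minus that in 86 to 124 was -0.60 ± 0.20 (interval -1.01 to -0.19, limma adjusted p = 0.395), and for the FADD IEC-KO effect it was -0.36 (SE 0.20, adjusted p = 0.530). Neither difference between the series passed the test.

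**Figure D2:**
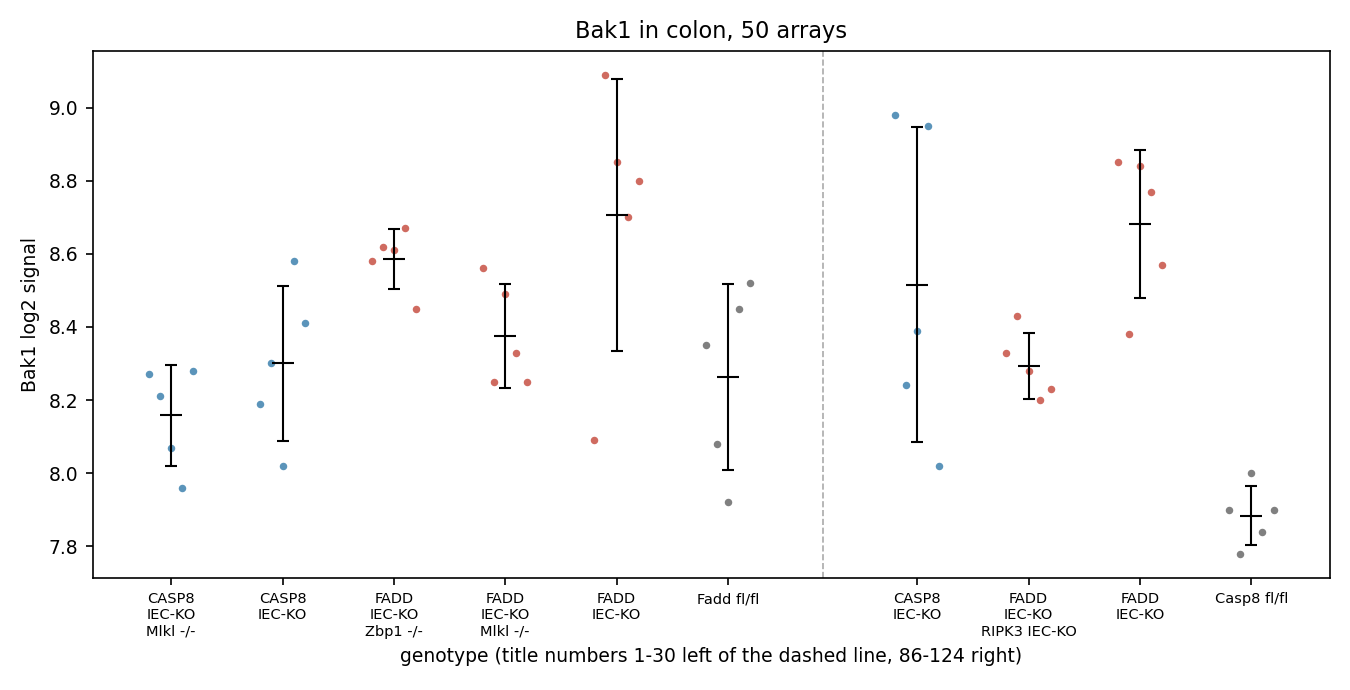
Bak1 log2 signal (vertical axis) on each of the 50 arrays in 10 groups (horizontal axis), with the group mean and SD as bars and a dashed line between title numbers 1 to 30 and 86 to 124. FADD IEC-KO stands at 8.71 and 8.68 in the 2 series, against 8.27 for Fadd fl/fl and 7.88 for Casp8 fl/fl.

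Bid, the BH3-only gene whose protein caspase-8 cuts, was higher in FADD IEC-KO of the series 86 to 124 than in Casp8 fl/fl. Its log2 signal was 5.81, 5.93, 5.99, 6.06 and 6.07 in FADD IEC-KO, against 5.15, 5.39, 5.42, 5.48 and 5.66 in Casp8 fl/fl. All knockout arrays lay above all control arrays. The difference was 0.55 ± 0.14 (SE, fold 1.47, limma adjusted p = 0.00922), and it passed in all 15 alternatives that tested it, from 0.49 to 0.61. Bid belongs to the dimmest 40% of genes, and the fit without these genes did not test it. In CASP8 IEC-KO of the same series Bid was at 5.35, 5.90, 6.01, 6.08 and 6.12, and 4 of 5 arrays lay above all controls. The difference was 0.47 ± 0.14 and missed the threshold (limma adjusted p = 0.0624). It passed without replicate 108, the low array (0.61, adjusted p = 0.00927). In the series 1 to 30 the differences from Fadd fl/fl were 0.06 ± 0.14 for CASP8 IEC-KO and 0.22 ± 0.14 for FADD IEC-KO (limma adjusted p = 0.912 and 0.318). FADD IEC-KO averaged 5.92 in 1 to 30 and 5.98 in 86 to 124. Casp8 fl/fl, at 5.42, was the lowest of the 10 groups, and Fadd fl/fl averaged 5.70 (difference -0.28 ± 0.14, adjusted p = 0.523). The effect in 1 to 30 minus that in 86 to 124 was -0.34 ± 0.20 for FADD IEC-KO and -0.41 ± 0.20 for CASP8 IEC-KO (adjusted p = 0.567 and 0.626). Genotype and number series cannot be told apart between the controls.

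The remaining BH3-only genes did not pass against floxed controls in the fit over all arrays. Pmaip1, a sensitiser that mainly counters MCL1, averaged 7.28 ± 0.28 in FADD IEC-KO of 1 to 30 and 7.02 ± 0.35 in Fadd fl/fl (SD, n = 5 each). In 86 to 124 it averaged 7.22 ± 0.29 in CASP8 IEC-KO and 7.13 ± 0.42 in FADD IEC-KO, against 6.84 ± 0.09 in Casp8 fl/fl. The FADD IEC-KO arrays of 86 to 124 ran from 6.68 to 7.82, whereas the Casp8 fl/fl arrays were close together at 6.74 to 6.95. The 3 differences were 0.26 ± 0.17, 0.37 ± 0.17 and 0.28 ± 0.17 (SE), with limma adjusted p of 0.301, 0.225 and 0.289. Bbc3, a potent killer that binds every pro-survival member, differed by 0.16 ± 0.08, 0.16 ± 0.08 and 0.09 ± 0.08 in the same 3 comparisons (adjusted p = 0.151, 0.276 and 0.475). In the first of these it passed without FADD IEC-KO replicate 24, the lowest array (0.22, adjusted p = 0.0413), and was at 0.11 without replicates 22 and 23 (0.584). Bcl2l11, the gene of BIM, differed by 0.13 to 0.17 with an SE of 0.19 in each. Its arrays were far apart in FADD IEC-KO of 86 to 124, where 2 stood at 6.14 and 6.17 and 3 at 6.93 to 7.41, whereas Casp8 fl/fl ran from 6.27 to 7.01. CASP8 IEC-KO of 1 to 30 differed from Fadd fl/fl by 0.07 ± 0.17 for Pmaip1 and 0.04 ± 0.08 for Bbc3. For Bcl2l11 it differed by -0.09 ± 0.19 (limma adjusted p = 0.904, 0.879 and 0.896 for the 3 genes).

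Among the pro-survival genes, Bcl2 came closest to the threshold, and only in the series 1 to 30. Its log2 signal was 7.75, 8.37, 8.39, 8.43 and 8.45 in FADD IEC-KO, against 8.45, 8.51, 8.55, 8.60 and 8.77 in Fadd fl/fl. The highest knockout value and the lowest control value were equal to 2 decimals. The difference was -0.30 ± 0.11 (SE, limma adjusted p = 0.0595), and replicate 22, at 7.75, moved it: without that array it was -0.17 with an adjusted p of 0.339. Quantile normalization, removal of dim genes, and trend and robust moderation each brought it past the threshold, with adjusted p of 0.0328, 0.0400 and 0.0490, as did leaving out FADD IEC-KO replicate 21, 24 or 25 (0.0479, 0.0390 and 0.0460). In 86 to 124 Bcl2 averaged 8.46 ± 0.18 in FADD IEC-KO and 8.47 ± 0.14 in Casp8 fl/fl (SD), a difference of -0.01 ± 0.11 (SE, interval -0.24 to 0.22). In CASP8 IEC-KO it differed from the control by -0.25 ± 0.11 in 1 to 30 (adjusted p = 0.387) and by -0.08 ± 0.11 in 86 to 124 (0.776).

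Bcl2l1, whose product BCL-XL restrains BAK, averaged 8.12 ± 0.22 in FADD IEC-KO of 1 to 30 and 7.86 ± 0.25 in Fadd fl/fl. The difference of 0.26 ± 0.11 missed the threshold (limma adjusted p = 0.0897). It passed without Fadd fl/fl replicate 26 (0.34, adjusted p = 0.0254) or FADD IEC-KO replicate 21 (0.32, 0.0398) or 24 (0.31, 0.0450), and was at 0.15 without replicates 22 and 23 (0.555). In 86 to 124 the difference of FADD IEC-KO was 0.02 ± 0.11. Bcl2l1 in CASP8 IEC-KO differed from the control by 0.19 ± 0.11 in 86 to 124 and by 0.02 ± 0.11 in 1 to 30 (adjusted p = 0.350 and 0.954). In FADD IEC-KO of 86 to 124 the 5 arrays read 7.82 to 7.86, the narrowest group of any member. Mcl1, the brightest member, averaged 10.88 ± 0.15 and 10.79 ± 0.19 in FADD IEC-KO, against 10.99 ± 0.21 for Fadd fl/fl and 10.96 ± 0.15 for Casp8 fl/fl. Its differences of -0.11 and -0.17 (SE 0.11 each) had intervals of -0.32 to 0.11 and -0.39 to 0.04, so changes of the size seen for Bak1 lay outside them. Mcl1 in CASP8 IEC-KO differed from the control by 0.03 ± 0.11 in 1 to 30 and by 0.02 ± 0.11 in 86 to 124 (limma adjusted p = 0.929 and 0.941).

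Counted together, 1 of 8 members was higher in FADD IEC-KO than in Fadd fl/fl in 1 to 30, at a limma adjusted p under 0.05, and none lower. Over all genes 18.7% passed there, 8.59% of them higher and 10.1% lower as shares of the 19494 genes. In 86 to 124, 2 of 8 were higher in FADD IEC-KO than in Casp8 fl/fl, against 11% of all genes in either direction, 6.8% higher and 4.25% lower. In CASP8 IEC-KO of 86 to 124, 1 of 8 was higher, against 2.46% of all genes, 1.8% higher. Those 479 genes became 1 without CASP8 IEC-KO replicate 87 or 104. In CASP8 IEC-KO of 1 to 30, 0 of 8 passed by limma, against 0.123% of all genes. The median difference of the 8 members was 0.19, 0.13, 0.17 and 0.04 in these 4 comparisons, and that of all genes was -0.016, -0.025, -0.010 and -0.013. The comparisons within a series share control arrays.

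**Figure D3:**
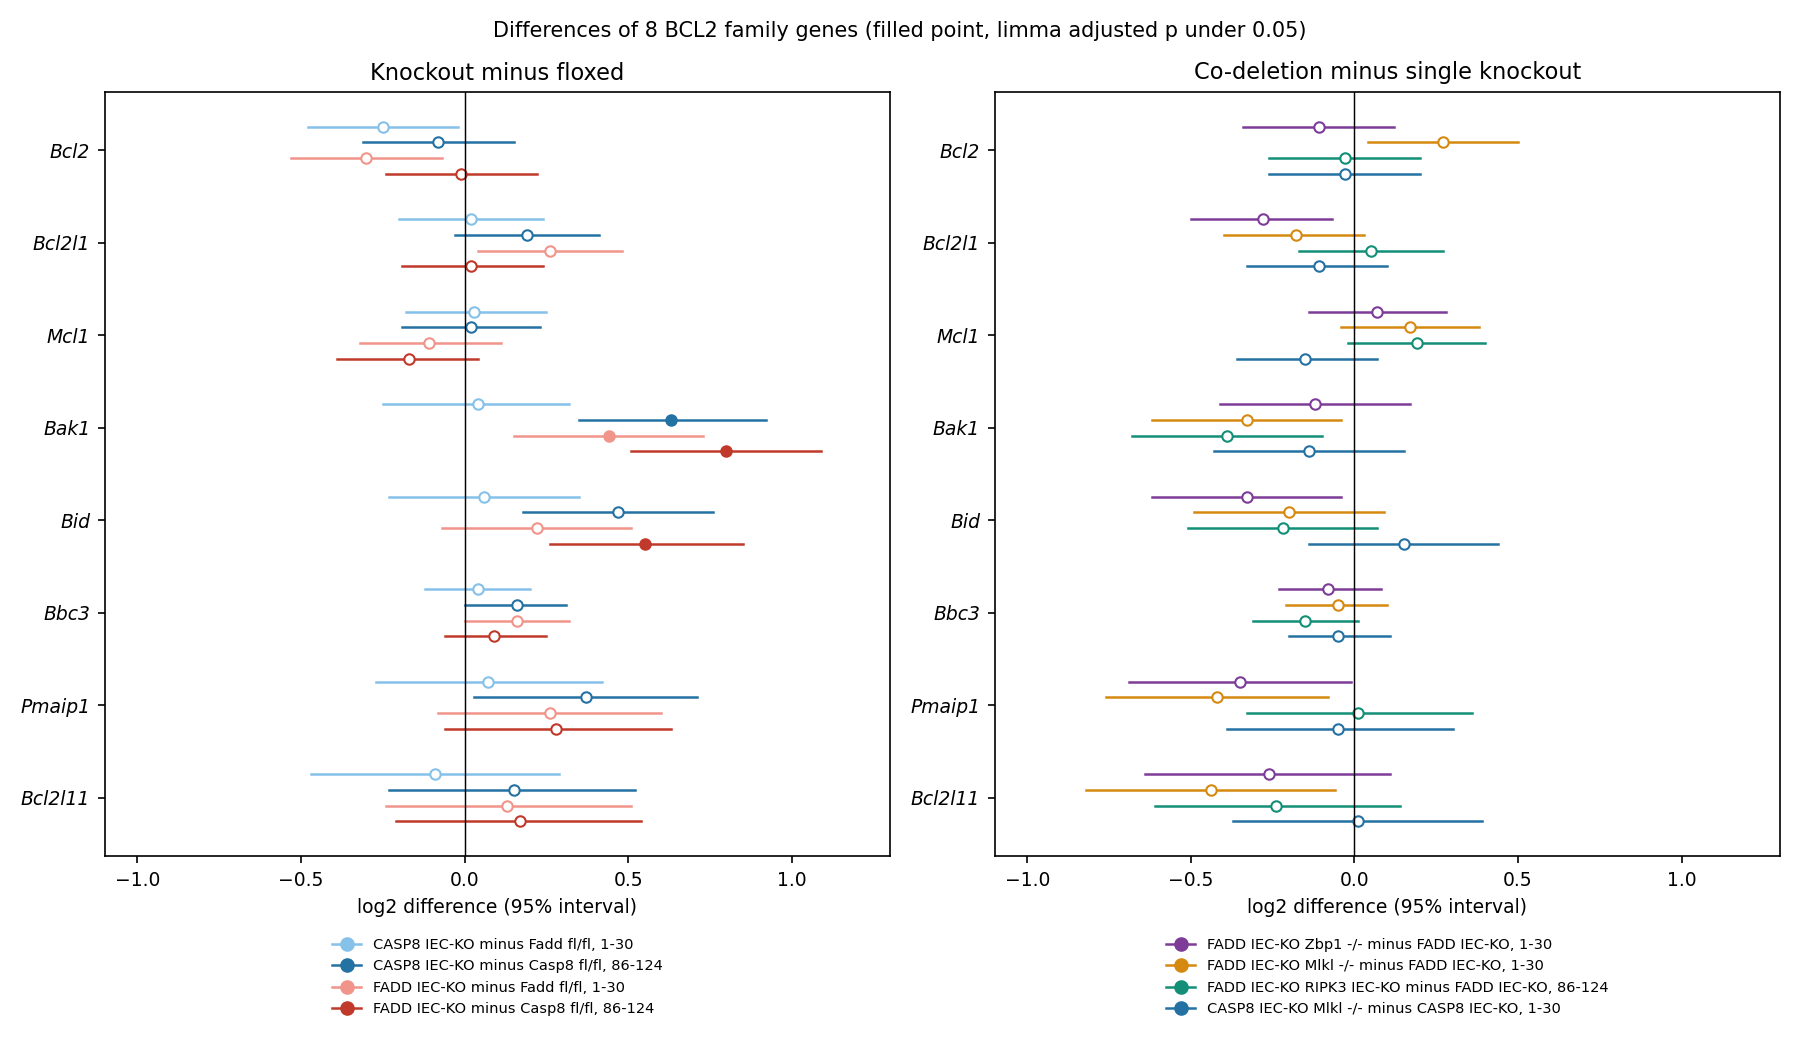
Log2 differences with 95% intervals (horizontal axes) of the 8 genes (rows). The left panel shows each knockout minus the floxed control of its series and the right panel each co-deletion minus its single knockout, with filled points for a limma adjusted p under 0.05. Filled points are Bak1 in 3 of the 4 knockout comparisons and Bid in FADD IEC-KO of 86 to 124, and the right panel has none.

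Co-deletion of the necroptosis genes was then set against the single knockout. No member passed the test in any of the 4 comparisons by limma. With Zbp1 loss in FADD IEC-KO, 0 of 8 passed against 10.8% of all genes (5.61% higher, 5.14% lower). With Mlkl loss, 0 of 8 passed against 5.85% (2.93% lower). With epithelial loss of RIPK3, 0 of 8 passed against 0.754%. With Mlkl loss in CASP8 IEC-KO, 0 of 8 passed against 0.421%. The median differences of the members were -0.19, -0.19, -0.09 and -0.05.

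Bak1 averaged 8.59 ± 0.08 in FADD IEC-KO Zbp1 -/- and 8.38 ± 0.14 in FADD IEC-KO Mlkl -/-, against 8.71 ± 0.37 in FADD IEC-KO of the same series (SD, n = 5 each). The FADD IEC-KO Zbp1 -/- arrays were close together at 8.45 to 8.67. The differences were -0.12 ± 0.14 (SE, interval -0.41 to 0.17, limma adjusted p = 0.658) and -0.33 ± 0.14 (-0.62 to -0.04, adjusted p = 0.169). Without FADD IEC-KO replicate 21 the Mlkl difference was -0.48 with an adjusted p of 0.0156, without replicate 22 it was -0.23 (0.457), and without 22 and 23 together -0.15 (0.809). The FADD IEC-KO RIPK3 IEC-KO arrays read 8.20, 8.23, 8.28, 8.33 and 8.43 for Bak1, against 8.38, 8.57, 8.77, 8.84 and 8.85 in FADD IEC-KO. Of the 5 co-deleted arrays 4 lay below all arrays of the single knockout, and all 5 lay above the 5 Casp8 fl/fl arrays at 7.78 to 8.00. The difference from the single knockout was -0.39 ± 0.14 (adjusted p = 0.182) and from Casp8 fl/fl it was 0.41 ± 0.14 (adjusted p = 0.278), so the level was intermediate and neither side passed. This SE comes from 1 spread shared by all groups. The Bak1 SD was 0.09 in FADD IEC-KO RIPK3 IEC-KO and 0.08 in Casp8 fl/fl, but 0.43 in CASP8 IEC-KO of 86 to 124. In CASP8 IEC-KO Mlkl -/- Bak1 averaged 8.16 ± 0.14, against 8.30 ± 0.21 in CASP8 IEC-KO (difference -0.14 ± 0.14, adjusted p = 0.723).

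Most other members had negative differences with Zbp1 or Mlkl loss in FADD IEC-KO, none of which passed. Bid averaged 5.59 ± 0.30 in FADD IEC-KO Zbp1 -/- and 5.92 ± 0.19 in FADD IEC-KO, a difference of -0.33 ± 0.14 (limma adjusted p = 0.132). Pmaip1 differed by -0.35 ± 0.17 with Zbp1 loss and by -0.42 ± 0.17 with Mlkl loss (adjusted p = 0.186 and 0.132), and by 0.01 ± 0.17 with RIPK3 loss. Bcl2l11 differed by -0.44 ± 0.19 with Mlkl loss, where the co-deleted arrays read 6.23 to 6.61 and the FADD IEC-KO arrays 6.43 to 7.52 (adjusted p = 0.157). Bcl2l1 differed by -0.28 ± 0.11 with Zbp1 loss (adjusted p = 0.0804), and it passed without FADD IEC-KO replicate 21 (-0.34, 0.0332) or 24 (-0.34, 0.0429). Without replicate 22 it was -0.22 (adjusted p = 0.262), and without 22 and 23 together -0.18 (0.535). Bcl2 differed by 0.27 ± 0.11 with Mlkl loss and by -0.11 ± 0.11 with Zbp1 loss (adjusted p = 0.151 and 0.595). Whether Mlkl loss acted differently in CASP8 IEC-KO and FADD IEC-KO was tested as an interaction. By limma, 0 of 8 members passed, against 0.0154% of all genes. Mcl1 had the smallest adjusted p, at -0.31 ± 0.15 (adjusted p = 0.429).

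Set against the floxed controls, the co-deleted groups had no member past the threshold by limma. In FADD IEC-KO Zbp1 -/- it was 0 of 8, against 1.07% of all genes. In FADD IEC-KO Mlkl -/-, CASP8 IEC-KO Mlkl -/- and FADD IEC-KO RIPK3 IEC-KO it was 0 of 8 each, against 0.159%, 0.0462% and 0.0769% of all genes. Bcl2 in FADD IEC-KO Zbp1 -/- had the smallest adjusted p among these. It read 7.80, 7.97, 8.32, 8.36 and 8.38 there, against 8.45 to 8.77 in Fadd fl/fl, with no overlap. The difference was -0.41 ± 0.11 (SE, limma adjusted p = 0.0585), and the adjusted p ran from 0.0228 to 0.232 over the alternatives. Bak1 differed by -0.11 ± 0.14 in CASP8 IEC-KO Mlkl -/-, by 0.11 ± 0.14 in FADD IEC-KO Mlkl -/- and by 0.32 ± 0.14 in FADD IEC-KO Zbp1 -/- (adjusted p = 0.917, 0.891 and 0.324).

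The single knockouts were compared with each other as the mean of the 2 series. By limma, 0 of 8 members passed, against 5.13% of all genes (3% lower). For Bak1, CASP8 IEC-KO minus FADD IEC-KO was -0.28 (SE 0.10, limma adjusted p = 0.0877). Within 1 to 30 the difference was -0.40 (adjusted p = 0.0762) and within 86 to 124 it was -0.17 (0.745). It passed without CASP8 IEC-KO replicate 87 or 104 or without FADD IEC-KO replicate 21 or 95, with adjusted p of 0.0314, 0.0256, 0.0103 and 0.0454. It was -0.22 (0.206) without CASP8 IEC-KO replicate 108 and -0.20 (0.417) without FADD IEC-KO replicates 22 and 23, and a fit of the compared groups alone gave an adjusted p of 0.337. Mcl1 was at 0.17 ± 0.07 in the same comparison (adjusted p = 0.180). For the other 6 members the differences lay between -0.12 and -0.01. The tests of each single knockout's effect between the 2 series, and of the floxed controls against each other, called 0 of 8 members each, against 0.123%, 0.00513% and 0.0359% of all genes for FADD IEC-KO, CASP8 IEC-KO and the controls.

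The wider pathway was described through 3 lists chosen with earlier results of these data known: 16 other BCL2 family genes, 17 measured genes of the apoptosome and its mitochondrial partners, and 14 measured regulators of BCL2 proteins. In FADD IEC-KO of 1 to 30, 4 of the 16 were higher and 1 lower than in Fadd fl/fl, 2 of the 17 higher and 2 lower, and 4 of the 14 higher, where 8.59% of all genes were higher and 10.1% lower. In 86 to 124, 2 of 16, 1 of 17 and 2 of 14 were higher than in Casp8 fl/fl, and none lower, where 6.8% of all genes were higher and 4.25% lower. The median differences of the 3 lists were 0.08, 0.10 and 0.07 in the first series and 0.10, -0.01 and 0.09 in the second, against -0.016 and -0.025 over all genes. None of the 47 genes passed in CASP8 IEC-KO against floxed controls in either series. The largest differences there were 0.52 ± 0.27 for Bcl2a1d and 0.44 ± 0.17 for Myc in 86 to 124 (limma adjusted p = 0.297 and 0.135).

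The genes of A1, a pro-survival BCL2 relative found mainly in blood-derived cells, had the largest differences of the 3 lists. Bcl2a1d read 4.66, 5.58, 5.98, 6.08 and 6.48 in FADD IEC-KO of 1 to 30, against 3.82, 4.07, 4.24, 4.68 and 4.71 in Fadd fl/fl, a difference of 1.45 ± 0.27 (SE, limma adjusted p = 0.000268). In 86 to 124 it read 4.31, 5.05, 5.05, 6.14 and 6.48, against 4.26, 4.40, 4.47, 4.50 and 4.54 in Casp8 fl/fl (0.97 ± 0.27, adjusted p = 0.0134). Replicate 21 in the first series and replicate 120 in the second lay within the controls. Bcl2a1b rose by 1.03 ± 0.25 and 0.83 ± 0.25 in the 2 series (adjusted p = 0.00256 and 0.0221). Bcl2a1a, Bcl2a1b and Bcl2a1d are near-identical copies that a probe may not separate, so their values are uncertain as single genes and count as less than 3 separate changes. Neutrophil marker means were highest on FADD IEC-KO replicates 22, 23, 117 and 124, at 8.04, 6.57, 7.05 and 5.83, where Bcl2a1d read 6.48, 5.98, 6.48 and 6.14. Replicate 25 read 6.08 for Bcl2a1d with a neutrophil mean of 5.22. Macrophage marker means on these 5 arrays were 8.49, 8.20, 8.38, 8.07 and 7.75. The part of immune cells in these differences was not tested.

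Downstream of the pore, Cycs, which encodes cytochrome c, rose in both series. It read 10.82, 11.02, 11.06, 11.23 and 11.30 in FADD IEC-KO of 1 to 30, against 10.37, 10.44, 10.47, 10.47 and 10.65 in Fadd fl/fl, with no overlap. The difference was 0.60 ± 0.11 (SE, limma adjusted p = 0.000325) and in 86 to 124 it was 0.39 ± 0.11 (adjusted p = 0.0224). Apaf1, the scaffold of the apoptosome, was named after its values were seen. It rose by 0.58 ± 0.16 in 1 to 30 (adjusted p = 0.00755), where replicate 21 read 7.39 and the other 4 arrays 8.00 to 8.42, and was at 0.29 ± 0.16 in 86 to 124 (adjusted p = 0.232). Among the regulators, Tfdp1, the partner of E2F factors, rose by 0.46 ± 0.09 and 0.40 ± 0.09 in the 2 series (adjusted p = 0.000314 and 0.00176). Stat3, a factor known to drive Bcl2l1 and Mcl1, rose by 0.71 ± 0.12 in 1 to 30 (adjusted p = 0.000104), whereas in 86 to 124 its difference was 0.03 ± 0.12. The difference between these 2 effects was 0.68 ± 0.17 and missed the threshold (adjusted p = 0.0603). Myc rose by 0.71 ± 0.17 in 1 to 30 (adjusted p = 0.00237) and was at 0.42 ± 0.17 in 86 to 124 (0.0944), while E2f1 rose by 0.63 ± 0.18 in 86 to 124 (0.0163). Proliferation markers averaged 8.55 ± 0.20 and 8.50 ± 0.20 in FADD IEC-KO of the 2 series, against 8.09 ± 0.17 for Fadd fl/fl and 7.96 ± 0.11 for Casp8 fl/fl (SD). The part of these cells in the differences was not tested.

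Without FADD IEC-KO replicates 22 and 23 together, 5 of the 13 pathway genes called in 1 to 30 still passed: Bcl2a1d (1.14, limma adjusted p = 0.0281), Cycs (0.56, 0.0192), Stat3 (0.53, 0.0205), Tfdp1 (0.43, 0.0192) and Bmf, a BH3-only gene, which was lower (-0.41, 0.0325). Bcl2a1b (0.77, 0.0969), Myc (0.47, 0.134) and Apaf1 (0.38, 0.227) were among those lost.

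In the co-deletions, several of these genes were lower than in FADD IEC-KO of the same series. With Zbp1 loss 3 of 16 other family genes were lower and 1 higher, 0 of 17 passed in either direction and 2 of 14 were lower, where 5.14% of all genes were lower and 5.61% higher. The median differences of the lists were -0.11, -0.13 and -0.11, against 0.009 over all genes. Stat3 read 8.50, 8.68, 8.77, 8.79 and 9.04 in FADD IEC-KO Zbp1 -/-, against 9.09, 9.42, 9.45, 9.73 and 9.82 in FADD IEC-KO (-0.75 ± 0.12, limma adjusted p = 0.000166). Mdm2, a ubiquitin ligase that is part of the damage response, read 8.20 to 8.40, against 8.58 to 8.90, also with no overlap (-0.50 ± 0.10, adjusted p = 0.00154). The A1 genes differed by -0.74 to -0.87 (adjusted p = 0.0277 to 0.0498), and Bmf was higher by 0.32 ± 0.10 (0.0341). With Mlkl loss 0 of 16, 2 of 17 and 1 of 14 were lower, where 2.93% of all genes were lower and 5.85% passed in either direction. These were Apaf1 by -0.57 ± 0.16, the initiator caspase gene Casp9 by -0.32 ± 0.09 and Stat3 by -0.46 ± 0.12 (adjusted p = 0.0225, 0.0268 and 0.0159). Without FADD IEC-KO replicates 22 and 23, only Stat3 with Zbp1 loss still passed (-0.56, adjusted p = 0.0298), while Mdm2 was at -0.44 (0.0544). None of the 47 passed with RIPK3 loss, where Bcl2a1d differed by -0.69 ± 0.27 (adjusted p = 0.202), or with Mlkl loss in CASP8 IEC-KO, where Hif1a differed by -0.34 ± 0.15 (0.311). Between the single knockouts, Bcl2a1a, Bcl2a1b, Bcl2a1d and Cycs were lower in CASP8 IEC-KO than in FADD IEC-KO, by 0.62, 0.68, 0.74 and 0.27 (limma adjusted p = 0.0471, 0.0163, 0.0155 and 0.0399).

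The members did not vary as one group over the 50 arrays. Over their 28 pairs Pearson's r, given as a description, ran from -0.40 to 0.41 with a median of 0.16, and the arrays share genotypes and tissue make-up. Bak1 and Pmaip1 had the highest value, 0.41, and Mcl1 and Bcl2l11 the lowest, -0.40. The genes nearest to each member were also listed. Being the highest of 18523 values for each member, they cannot be set against the 28 pairs. The 3 nearest to Bak1 of 18523 genes compared were Fut2, which adds fucose to mucosal glycans, Cib1, a calcium-binding protein gene, and Sec23b, a coat protein gene of vesicle transport, each at r = 0.86, and with group means removed at 0.77, 0.76 and 0.78. The nearest to Mcl1 were Ndel1, Usp2 and Tfcp2l1 at 0.86, 0.79 and 0.78, and with group means removed at 0.87, 0.78 and 0.78. Bcl2 was nearest to Nf1, a regulator of RAS, at 0.70, Bcl2l1 to Srp68 at 0.72, Bid to the splicing factor gene Srsf9 at 0.69, Bbc3 to Prg2 at 0.61, Pmaip1 to Ssh2 at 0.73 and Bcl2l11 to Ly6d at 0.69.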

How the data were processed

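Per the submitters' processing notes, the arrays were processed in Affymetrix Expression Console and Transcriptome Analysis Console. No source used here gives the versions or the normalization method. Deposited values run from 1.18 to 13.3 as log2 signals, 1 per probe set and array. Of 22142 probe sets 19527 carried 1 symbol and 2615 none. For each symbol the probe set with the highest mean was kept, which left 19494 genes. Symbols came from the platform annotation.

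Group means of the 50 arrays were fitted together with limma 3.58.1 in R 4.3.3, empirical Bayes moderation included, which left 40 residual degrees of freedom. Benjamini-Hochberg adjustment ran over the 19494 genes, at a threshold of 0.05. The procedure was also tested on simulated data. The number of arrays limits the precision. Whether replicates are separate mice is not stated in the labels.

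Members and gene lists were chosen with earlier results of these data known. The members were named in every comparison, as were up to 6 pathway genes with the smallest adjusted p among those that passed (the 2 largest differences where none passed), and the 3 genes most correlated with each member. Alternatives were a fit of the compared groups alone, group weights, trend and robust moderation, quantile normalization, a test without the dimmest 40% of genes, mean of probe sets, and left-out arrays. Within-series values for the single knockouts were added after the data were seen. Bax is not reported here.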

Additional observations from a re-analysis of the deposited data

Results flagged for a closer look

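Single arrays stood apart from their group of 5 in 5 of the 80 combinations of member and group (6.25%), where chance alone gives about 1 in 20. In FADD IEC-KO of 1 to 30, Bcl2 read 7.75 on replicate 22, far below the nearest array at 8.37, and Bbc3 read 6.74 on replicate 24, with the nearest at 6.99. In CASP8 IEC-KO of 86 to 124, Bid read 5.35 on replicate 108, below the nearest at 5.90. In FADD IEC-KO Mlkl -/- Mcl1 read 10.72 on replicate 12, with the nearest at 11.07. In FADD IEC-KO Zbp1 -/- Bcl2l11 read 6.93 on replicate 5, above the nearest at 6.60. Replicate 22 also had the highest neutrophil marker mean of its group, 8.04. The part of that in its Bcl2 value was not tested.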

How the results depend on the processing

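The counts of members called changed in 7 of the 17 comparisons. For FADD IEC-KO against Fadd fl/fl the count of 1 became 0 in a fit of the compared groups alone and without replicates 22 and 23 together, and 2 under quantile normalization, without the dimmest 40% of genes and with trend and robust moderation, where Bcl2 joined Bak1. Leaving out single arrays gave 0 to 4, with Bcl2l1 and Bbc3 among those called. For FADD IEC-KO against Casp8 fl/fl the count of 2 became 1 without the dimmest genes, since Bid was not tested there. For CASP8 IEC-KO against Casp8 fl/fl the count of 1 became 0 in the fit of the compared groups alone, and 0 to 2 without single arrays. For FADD IEC-KO Zbp1 -/- against Fadd fl/fl the count of 0 became 1 (Bcl2) under quantile normalization, without the dimmest genes, with trend and robust moderation and with group weights, and 0 to 1 without single arrays. The counts of 0 for FADD IEC-KO Zbp1 -/- and for FADD IEC-KO Mlkl -/- against FADD IEC-KO, and for CASP8 IEC-KO against FADD IEC-KO, became 0 to 1 without single arrays. The causes were not tested. No called value changed sign.

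Counts over all genes moved further. For FADD IEC-KO against Fadd fl/fl the 3650 genes called became 1784 in the fit of the compared groups alone and 682 without replicates 22 and 23. For FADD IEC-KO against Casp8 fl/fl the 2154 became 787 and, with group weights, 1430. For CASP8 IEC-KO the 479 against Casp8 fl/fl became 1 in the compared groups alone, 725 without dim genes and 147 with weights, and the 24 against Fadd fl/fl became 10, 52 and 80 under the same 3 settings. For co-deletions against FADD IEC-KO, the 2096 with Zbp1 loss became 184 in the compared groups alone and 121 without replicates 22 and 23, and the 1140 with Mlkl loss became 51 and 8. The 147 with RIPK3 loss became 22, 276 and 63, and the 82 with Mlkl loss in CASP8 IEC-KO became 27, 149 and 368, in the compared groups alone, without dim genes and with weights. For FADD IEC-KO Zbp1 -/- against Fadd fl/fl the 209 became 106, 384 and 552 under these settings. For CASP8 IEC-KO against FADD IEC-KO the 1000 became 41 in the compared groups alone, 510 with weights, 135 without replicates 22 and 23 and 32 within 86 to 124. Leaving out single arrays gave 2183 to 4257 genes for FADD IEC-KO against Fadd fl/fl, 1356 to 2602 against Casp8 fl/fl, and 1 (without CASP8 IEC-KO replicate 87 or 104) to 1070 (without 108) for CASP8 IEC-KO against Casp8 fl/fl. It gave 835 to 3001, 388 to 2156 and 24 to 411 with Zbp1, Mlkl and RIPK3 loss in FADD IEC-KO, and 417 to 1795 for CASP8 IEC-KO against FADD IEC-KO. It gave 13 to 41 for CASP8 IEC-KO against Fadd fl/fl, 21 to 104 with Mlkl loss in CASP8 IEC-KO and 68 to 284 for FADD IEC-KO Zbp1 -/- against Fadd fl/fl. The other comparisons had at most 31 genes called, and 0 to 169 under the alternatives. The number of arrays limits the precision, and Bid lies among the dimmest 40% of genes. No paired analysis was possible because no title number occurs in more than 1 group.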
